A study of Mus musculus with 8 samples.

Results

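*Nalcn*, the gene of the pore of the sodium leak channel NALCN, was described in control and *Ezh2 Amhr2*-Cre cKO uteri together with the genes of 3 channel partners, *Unc80*, *Unc79* and *Fam155a*, and with *Itgbl1*, its neighbour on the chromosome. These are 5 of the 27179 genes in the counts. *Nalcn* and *Itgbl1* were selected on their log2 fold changes, the lowest among the differentially expressed (DE) genes of the same comparison, and the partners were selected for their known function, so the differences below are descriptions without a test. RNA-seq was performed on whole uteri at postnatal day 10 (PD10), with 4 control and 4 cKO mice and a separate library for each mouse. Control mice (Ctrl, *Ezh2* f/f) carried the floxed *Ezh2* allele without Cre, and cKO mice carried the same floxed allele together with *Amhr2*-Cre. All mice were kept on a C57BL/6/129SvEv background. *Amhr2*-Cre acts in cells derived from the mesenchyme of the Müllerian duct and not in the epithelium, so a whole uterus of a cKO mouse still holds cells with intact *Ezh2*.

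NALCN is a channel related to the voltage-gated sodium and calcium channels that passes a steady inward sodium current and thereby sets how close a cell rests to its firing threshold. It works only with its partners: UNC80 and UNC79 are large scaffold proteins bound to the pore inside the cell, and FAM155A is a small cysteine-rich subunit needed to bring the pore to the surface. In the uterus the channel is known from the smooth muscle of the myometrium, where it contributes to electrical excitability. ITGBL1 is a secreted protein made of EGF-like repeats that resemble those of the integrin beta subunits, and it lacks the parts by which integrins bind their ligands and span the membrane. EZH2 is the catalytic subunit of Polycomb repressive complex 2, which places a repressive methyl mark on histone H3 and is often recruited to CG-rich promoters.

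*Nalcn* and *Itgbl1* lie head to head on chromosome 14 of GRCm38. *Nalcn* (Entrez 338370) runs on the minus strand from 123275678 to 123627330 and has 46 merged exons, and *Itgbl1* (Entrez 223272) runs on the plus strand from 123659937 to 123978865 with 12 merged exons. The gap between the gene bodies is 32.6 kb. The partners lie elsewhere, *Unc80* (Entrez 329178) on chromosome 1 from 66467915 to 66699150, *Unc79* (Entrez 217843) on chromosome 12 from 102947383 to 103184228, and *Fam155a* (Entrez 270028) on chromosome 8 from 9206006 to 9773329.

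The promoter sequences are shown for their CG dinucleotides, since CG content bears on where Polycomb complexes are recruited. The RefSeq promoter table (GRCm38.p6) gives 1 start per gene, which need not be the outermost start of the gene body. Of the 250 bases before that start, 186 lie inside the RefSeq gene body for *Nalcn*, 203 for *Itgbl1*, 19 for *Unc80* and all 250 for *Unc79*. Within these 250 bases *Nalcn* had 2 CG dinucleotides, *Itgbl1* had 5, *Unc79* had 4 and *Unc80* had 6. The median over 32851 promoters of the same length was 6, 92.1% of them held at least 1, and 29.0% held no more than *Nalcn* and 49.6% no more than *Itgbl1*. The motif searched is CG, which reads the same on both strands. The bases that lie outside the annotated body and exons of the gene itself follow, read 5′ to 3′ on the strand of the gene, with CG in capitals. Other genes were not checked for these stretches. They are chr14:123627331-123627394 (minus strand) for *Nalcn*, chr14:123659890-123659936 (plus strand) for *Itgbl1* and chr1:66467684-66467914 (plus strand) for *Unc80*, which is shown for contrast.
Nalcn: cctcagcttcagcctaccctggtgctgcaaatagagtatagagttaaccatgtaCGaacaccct
Itgbl1: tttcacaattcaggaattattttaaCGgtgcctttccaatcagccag
Unc80: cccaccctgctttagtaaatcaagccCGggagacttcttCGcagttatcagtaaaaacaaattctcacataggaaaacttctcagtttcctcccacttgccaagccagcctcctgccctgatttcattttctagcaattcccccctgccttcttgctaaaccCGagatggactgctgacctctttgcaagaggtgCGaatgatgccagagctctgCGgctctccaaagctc
The stretches printed for *Nalcn* (64 bases) and *Itgbl1* (47 bases) hold 1 CG each, and the longer one of *Unc80* (231 bases) holds 5. A match or its absence describes these letters only.

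Levels are given as CPM, which are counts scaled to library size, with edgeR's TMM correction for composition. A log2 fold change below 0 means a lower level in cKO uteri. The libraries held between 25287141 and 36685807 counts, so that 3 counts, the most that an observed 0 leaves room for, amount to 0.0824 to 0.117 CPM. This limit and the count ratios below cover counting error only. By a chi-square of the counts per gene, cKO replicate 4 lay nearer to control replicates 4 (12.1) and 3 (14.3) than to the other cKO libraries (18.2 to 20.4), so values without it are given below where leaving it out changed a call in the 4 lists of related genes or moved 1 of the 5 genes across the 2-fold threshold. With all libraries 5.34% of the genes tested were called, which means an adjusted p under 0.05 in either direction, and without cKO replicate 4 it was 10.8%. *Ezh2* was at 35.4 to 54.7 CPM in control and 30.5 to 40.7 CPM in cKO uteri with overlapping libraries, a log2 fold change of -0.29 with a standard error of 0.13, and an adjusted p of 0.247 in edgeR's quasi-likelihood test with Benjamini-Hochberg adjustment. Its counts include exons outside the floxed part and cells without Cre. The authors report the recombined allele and lower *Ezh2* mRNA in cKO uteri, with weaker EZH2 staining in the stroma and not in the epithelium. Of 16658 genes tested, 217 were DE, which means that they changed by a factor over 2 with an adjusted p under 0.05.

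*Nalcn*, the pore gene, was at 6.25, 6.92, 5.32 and 4.20 CPM in control replicates 1 to 4, from 198, 179, 149 and 153 counts. In cKO replicates 1 to 4 it was at 0.311, 0.268, 0.123 and 0.280 CPM, from 8, 8, 4 and 8 counts. Every cKO library was thus far below every control library, and each retained a few counts. The mean was 5.67 ± 1.18 CPM (SD, n = 4) in controls against 0.246 ± 0.0835 CPM (SD, n = 4) in cKO uteri, with a log2 fold change of -4.53 (standard error 0.27). Pooled over the mice of a genotype and scaled to library totals, control uteri held 23.0 times as many counts as cKO uteri (679 against 28 counts, exact 95% interval 15.8 to 34.9). In whole uteri, fewer cells that express a gene and less RNA per cell cannot be told apart, for this and every gene below.

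*Unc80*, the scaffold that binds the pore, was at 1.58, 1.66, 1.28 and 1.37 CPM in control replicates 1 to 4 and at 0.583, 0.636, 0.893 and 1.16 CPM in cKO replicates 1 to 4. The groups did not overlap, and the highest cKO library, replicate 4, was close to the lowest control library. The mean was 1.47 ± 0.176 CPM (SD, n = 4) in controls against 0.817 ± 0.264 CPM (SD, n = 4) in cKO uteri, a log2 fold change of -0.84 (standard error 0.25) and so short of a 2-fold change. Without cKO replicate 4 it was -1.05 (standard error 0.25), past a 2-fold change. The pooled counts were 179 and 96, a ratio of 1.77 (exact 95% interval 1.38 to 2.30).

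*Fam155a*, the subunit needed for surface delivery, was at 3.22, 4.49, 3.46 and 4.56 CPM in control replicates 1 to 4 and at 2.25, 3.01, 3.42 and 2.49 CPM in cKO replicates 1 to 4. The groups overlapped in cKO replicate 3, which lay above control replicate 1. The mean was 3.93 ± 0.691 CPM (SD, n = 4) in controls against 2.79 ± 0.525 CPM (SD, n = 4) in cKO uteri, a log2 fold change of -0.49 (standard error 0.18). The pooled counts were 481 and 330, a ratio of 1.39 (exact 95% interval 1.2 to 1.6).

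*Unc79*, the scaffold held to the pore through UNC80, was at 0.599, 0.580, 0.392 and 0.275 CPM in control replicates 1 to 4 and at 0.505, 0.536, 0.308 and 0.385 CPM in cKO replicates 1 to 4. The groups were mixed, and control replicate 4 was the lowest library of all. With 10 to 19 counts in each library, the means of 0.462 ± 0.156 CPM (SD, n = 4) and 0.433 ± 0.106 CPM (SD, n = 4) gave a log2 fold change of -0.08 (standard error 0.34). The pooled counts were 55 and 50, a ratio of 1.05 (exact 95% interval 0.700 to 1.57). At this depth a difference within that interval was not detectable.

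*Itgbl1*, the gene of the secreted EGF-repeat protein, was at 1.61, 1.43, 2.32 and 1.40 CPM in control replicates 1 to 4, from 51, 37, 65 and 51 counts. In cKO replicates 1 to 4 it was at 0.155, 0.10, 0 and 0.175 CPM, from 4, 3, 0 and 5 counts. The groups were far apart, and the library without a count, cKO replicate 3, was also the lowest for *Nalcn*. Finding 0 counts in that library allows up to 0.0924 CPM. The mean was 1.69 ± 0.429 CPM (SD, n = 4) in controls against 0.108 ± 0.0785 CPM (SD, n = 4) in cKO uteri, a log2 fold change of -3.97 (standard error 0.45). The pooled counts were 204 and 12, a ratio of 16.2 (exact 95% interval 9.05 to 31.8).

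All 5 genes passed the filter on low counts, and each had a log2 fold change below 0. Of the 5, *Nalcn* and *Itgbl1* were DE, where 0.636% of all genes tested were DE and lower in cKO uteri. *Nalcn*, *Itgbl1* and *Unc80*, that is 3 of the 5, had every cKO library below every control library, which held for 6.43% of all genes tested. Because this contrast chose *Nalcn* and *Itgbl1*, nothing is read from these counts.

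**Figure D1:**
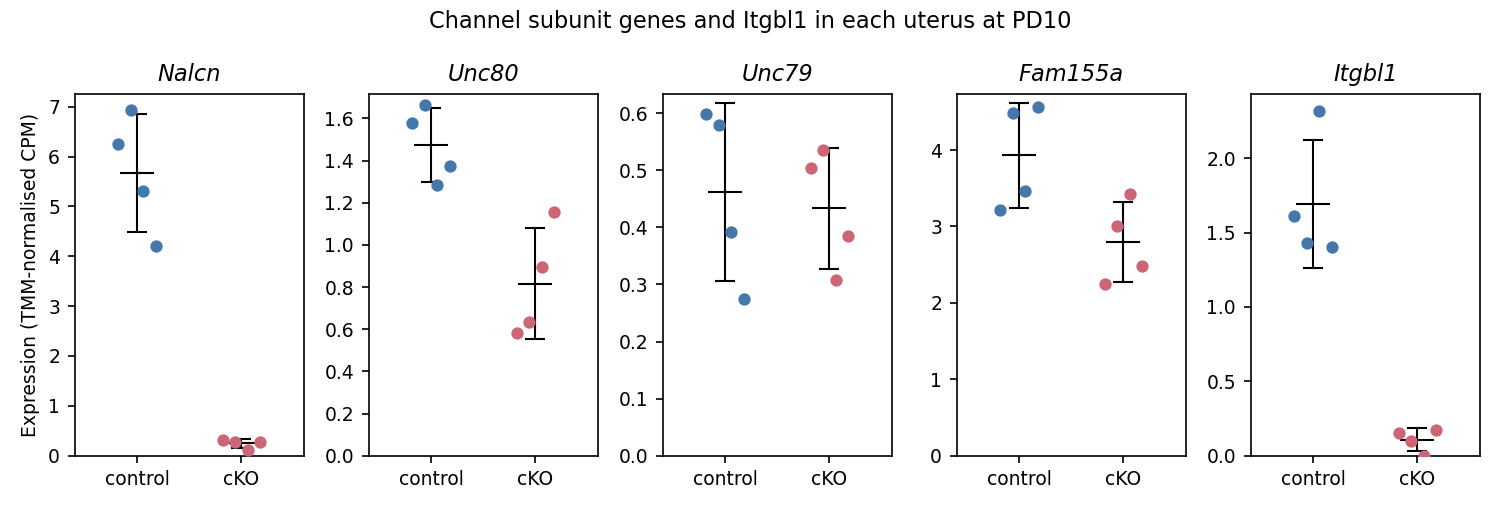
Expression (TMM-normalised CPM, y axis, each panel with its own scale from 0) of the 5 genes in the 4 control and 4 cKO uteri, with a point for each mouse, a long bar for the mean and error bars for the SD. The cKO points of *Nalcn* and *Itgbl1* sit near 0, those of *Unc80* sit below the control points, and those of *Fam155a* and *Unc79* overlap with them.

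To compare the subunit genes with each other, CPM was divided by the length of the merged exons, from 6536 bases in *Fam155a* to 14715 bases in *Nalcn*. In control uteri the level per kilobase was highest in *Fam155a* (0.601 ± 0.106 CPM per kb, SD, n = 4), followed by *Nalcn* (0.385 ± 0.0803), *Unc80* (0.102 ± 0.0122) and *Unc79* (0.0324 ± 0.0109). This order held in each of the 4 control libraries. *Fam155a* and *Nalcn* were the closest neighbours in it and came nearest in control replicate 1, at 0.492 and 0.424 CPM per kb.

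In cKO uteri *Nalcn* moved from the second place to the last. Per kilobase, *Nalcn* was above *Unc80* and above *Unc79* in 4 of 4 control libraries and in 0 of 4 cKO libraries. The ratio of *Nalcn* to *Unc80* per kilobase was 3.89, 4.10, 4.06 and 2.99 in control replicates 1 to 4 and 0.522, 0.413, 0.135 and 0.237 in cKO replicates 1 to 4. Against *Unc79* the ratio was between 10.1 and 14.8 in control and between 0.388 and 0.704 in cKO libraries. The partners kept their order, with *Fam155a* above *Unc80* and *Unc80* above *Unc79* in 4 of 4 libraries of both genotypes. The mean cKO levels per kilobase were 0.427 ± 0.0803 for *Fam155a*, 0.0566 ± 0.0183 for *Unc80*, 0.0304 ± 0.00741 for *Unc79* and 0.0167 ± 0.00567 for *Nalcn* (SD, n = 4). *Unc80* and *Unc79* came close in cKO replicates 1 and 2, at 0.0404 and 0.0354 and at 0.0441 and 0.0375 CPM per kb.

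**Figure D2:**
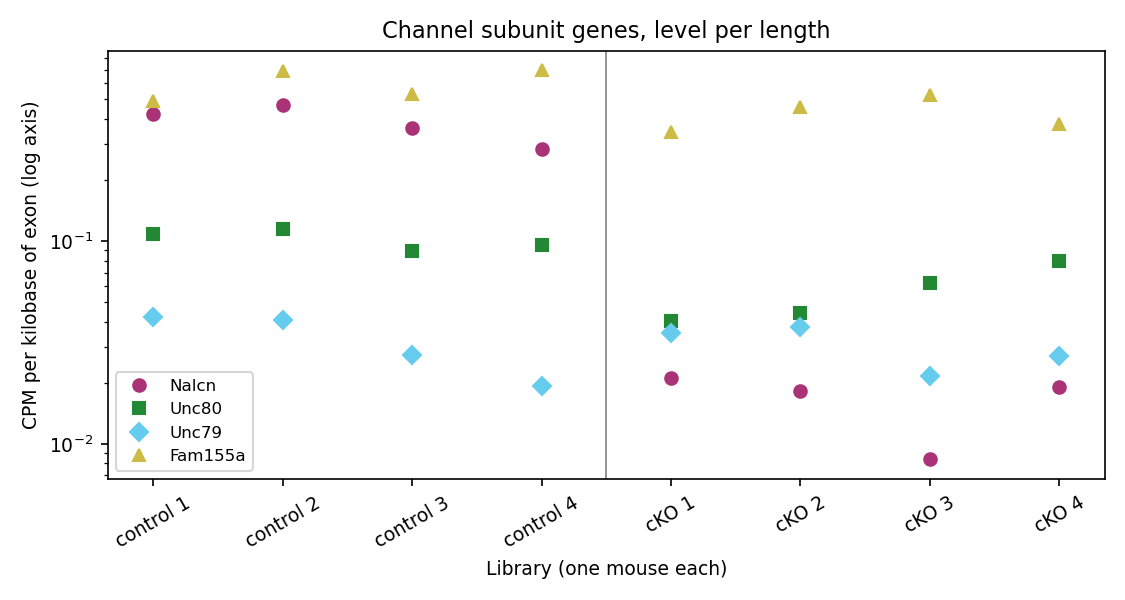
Level per length (CPM per kilobase of merged exon, log y axis) of the 4 subunit genes in each library (x axis, a mouse each, controls left of the line and cKO right of it). *Nalcn* lies between *Fam155a* and *Unc80* in the 4 control libraries and below the other subunit genes in the 4 cKO libraries.

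The genes around *Nalcn* and *Itgbl1* were compared to see how far along the chromosome the low values reached. The 10 genes nearest to *Nalcn* in the counts on the side away from *Itgbl1*, and the 2 beyond *Itgbl1*, were taken from the RefSeq gene table. Of these 12 neighbours, 4 passed the filter and 0 were called by edgeR's quasi-likelihood test at an adjusted p under 0.05, where 5.34% of all genes tested were called in either direction. At an unadjusted p under 0.05 there were 3 of the 4, where 21.2% of all genes tested had such a p, and DESeq2 and limma-voom called 0. *Pcca* had every cKO library below every control library, which held for 6.43% of all genes tested. *Ggact* had every cKO library above every control library, a direction for which the share over all genes was not computed. *Tmtc4*, whose gene body ends 292.4 kb from that of *Nalcn*, was at 24.3 ± 1.41 CPM (SD, n = 4) in controls against 21.5 ± 1.97 CPM (SD, n = 4) in cKO uteri (log2 fold change -0.18, standard error 0.08, adjusted p = 0.231). *Ggact* (0.23, standard error 0.08, adjusted p = 0.133), *Pcca* (-0.20, standard error 0.08, adjusted p = 0.19) and *Clybl* (0.06, standard error 0.08, adjusted p = 0.689) lay further away.

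*Fgf14* is the next gene beyond *Itgbl1*, and encodes an intracellular factor that binds voltage-gated sodium channels. It was at 0.101 ± 0.0691 CPM (SD, n = 4) in controls against 0.0901 ± 0.0833 CPM (SD, n = 4) in cKO uteri, near the limit of a count of 0, and was not tested. Its gene body overlaps that of *Itgbl1* by 4.42 kb on the opposite strand. The strand setting of the counting is not given in the sources used here, so reads from this overlap could be assigned to either gene. No other measured gene lies between *Nalcn* and *Itgbl1* in the counts, and AA536875, the nearest on the other side of *Nalcn*, was at 0.00892 ± 0.0178 CPM (SD, n = 4) in controls against 0 in cKO uteri.

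**Figure D3:**
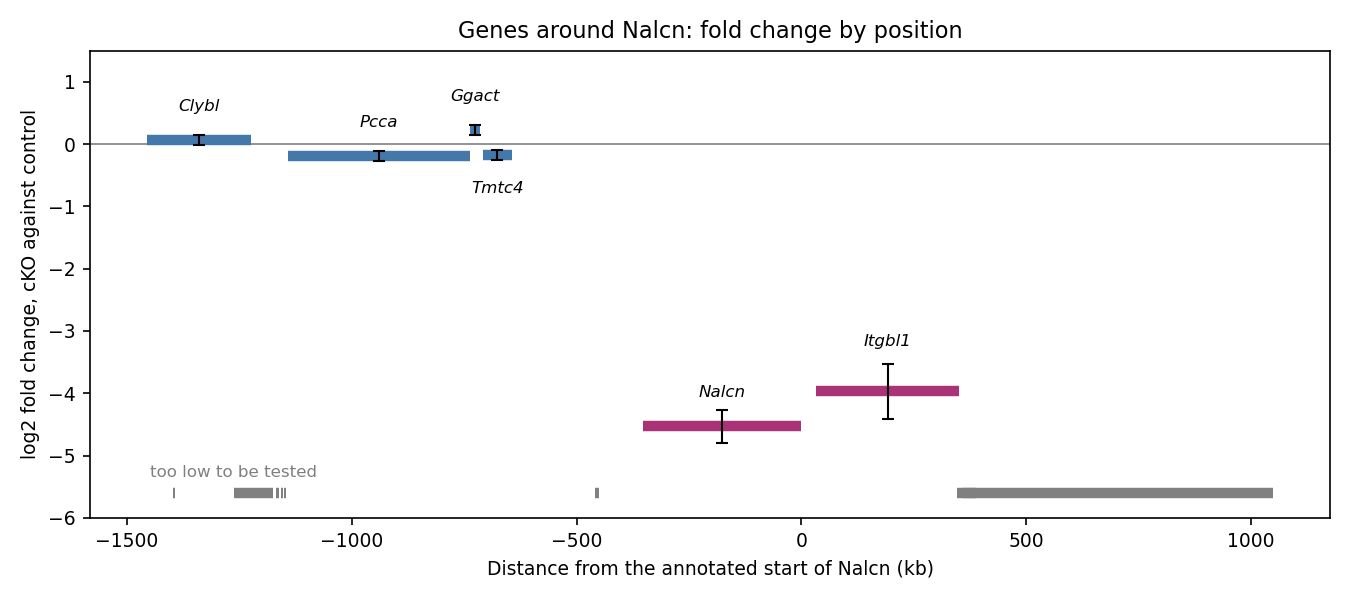
Log2 fold change of cKO against control (y axis) for genes around *Nalcn*, placed by distance from its annotated start in kb (x axis), where a bar spans a gene body and the error bar is the standard error. *Nalcn* and *Itgbl1* lie near -4.53 and -3.97, the 4 tested neighbours lie between -0.20 and 0.23, and grey bars at the bottom mark genes too low to be tested.

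In the order of log2 fold changes over the DE genes, *Nalcn* was the lowest and *Itgbl1* came next, and the gene after them was *Cxcl15*, a chemokine made by uterine glands (-3.83, standard error 0.42). The likeness of expression patterns was measured over the 8 libraries, as the root mean square difference of log2(CPM + 0.1) centred on the mean of each gene, among 14627 genes whose mean reached 1 CPM in either genotype. A small value means that a gene went up and down across the same libraries by the same amount, and here it is set mostly by the genotype difference that chose *Nalcn* and *Itgbl1*.

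The 5 genes most like *Nalcn* were *Cxcl15* (0.49 on the log2 scale), *Itgbl1* (0.56), *Ihh* (0.63), *Nos1* (0.69) and *Dleu7* (0.73). *Ihh* encodes the hedgehog ligand of the uterine epithelium, and *Nos1* the neuronal nitric oxide synthase. *Ihh* was at 3.21 to 5.42 CPM in control and 0.194 to 0.736 CPM in cKO libraries. *Cxcl15* was at 2.25 to 5.88 CPM in control and 0.123 to 0.602 CPM in cKO libraries. *Nos1* was at 1.18 to 1.80 CPM in control and 0.0335 to 0.272 CPM in cKO libraries. Each of the 5 had all cKO libraries below all control libraries, with cKO values under 1 CPM, and this held for 6.43% of all genes tested. It follows from choosing genes by their likeness to *Nalcn*, so nothing is read from it.

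The 5 genes most like *Itgbl1* were *Foxa2* (0.34), *Galnt14* (0.43), *Ihh* (0.55), *Nalcn* (0.56) and *Xcl1* (0.58). *Foxa2* encodes a transcription factor of the uterine glands, *Galnt14* an enzyme that starts O-linked glycosylation, and *Xcl1* a chemokine made by lymphocytes. *Foxa2* was at 1.62 to 2.25 CPM in control and 0.0924 to 0.385 CPM in cKO libraries. The channel partners differed more from *Nalcn*, although they ranked high among the 14627 genes. *Unc80* ranked 157 for likeness to *Nalcn* (1.68 on the log2 scale) and *Fam155a* ranked 499 (1.86), while *Unc79* was under 1 CPM in both genotypes and was not ranked.

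Genes of receptors, kinases and channels known to act on NALCN or to work beside it, and the substance P precursor gene *Tac1*, were measured next, from a list of 13 symbols, of which 11 were found in the counts and 9 were tested. *Kcnt1* rose and none fell, so that 1 of 9 (11.1%) was called against 5.34% of all genes, and the median log2 fold change was 0.16 against 0 over all genes tested. *Kcnt1* encodes a potassium channel opened by intracellular sodium. It was at 0.599, 0.890, 0.928 and 0.686 CPM in control replicates 1 to 4 and at 2.33, 3.05, 1.76 and 1.58 CPM in cKO replicates 1 to 4, with every cKO library above every control library. The log2 fold change was 1.5, with a standard error of 0.26 and an adjusted p of 0.00541 in edgeR's quasi-likelihood test. Its relative *Kcnt2* was at 15.0 ± 0.424 CPM (SD, n = 4) in controls against 16.7 ± 0.659 CPM (SD, n = 4) in cKO uteri (adjusted p = 0.233 in the same test). *Gabbr1*, a subunit gene of the GABA-B receptor, was at 33.4, 28.7, 27.0 and 23.97 CPM in control replicates 1 to 4 and at 53.6, 57.5, 33.5 and 23.5 CPM in cKO replicates 1 to 4. The groups overlapped, with cKO replicate 4 the lowest library of all, and *Gabbr1* was not called (log2 fold change 0.57 with standard error 0.28, adjusted p = 0.291 in the same test). Without cKO replicate 4 it was called as well (0.77, standard error 0.18, adjusted p = 0.0315), so that 2 genes of the list were called.

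The SRC family kinases, through which receptors act on the channel, had high levels in both genotypes. *Fyn* was at 118 ± 16.1 CPM (SD, n = 4) in controls against 107 ± 5.77 CPM (SD, n = 4) in cKO uteri, and *Src* was at 70.4 ± 3.19 and 70.0 ± 2.84 CPM (log2 fold changes -0.14 and -0.01, standard errors 0.09 and 0.06). The substance P receptor gene *Tacr1*, whose product opens the channel in neurons, was at 0.872 ± 0.385 CPM (SD, n = 4) and 0.536 ± 0.201 CPM (SD, n = 4), with overlapping libraries and an adjusted p of 0.306 in edgeR's quasi-likelihood test. *Chrm3*, the muscarinic receptor gene of smooth muscle, was at 13.0 ± 1.31 CPM (SD, n = 4) and 14.9 ± 2.32 CPM (SD, n = 4). The calcium-sensing receptor gene *Casr* and the dopamine receptor gene *Drd2* were under the filter.

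Among the pore and beta subunit genes of the related sodium and calcium channels, 18 of 25 listed genes were tested, 0 rose and 1 fell (5.56% called, against 5.34% of all genes tested), with a median log2 fold change of 0.11. The gene that fell was *Cacna1d*, which encodes an L-type calcium channel pore. It was at 91.4, 104, 71.2 and 79.7 CPM in control replicates 1 to 4 and at 41.6, 51.7, 56.9 and 53.9 CPM in cKO replicates 1 to 4, and the groups did not overlap. The log2 fold change of -0.76, with a standard error of 0.12 and an adjusted p of 0.00543 in edgeR's quasi-likelihood test, was under the 2-fold threshold. *Cacna1c*, the main L-type pore gene of smooth muscle, was at 77.6 ± 8.85 CPM (SD, n = 4) in controls against 77.7 ± 3.43 CPM (SD, n = 4) in cKO uteri, a log2 fold change of 0 (standard error 0.08). The T-type pore gene *Cacna1g* was at 78.9 ± 3.52 CPM (SD, n = 4) and 89.2 ± 1.39 CPM (SD, n = 4), with an adjusted p of 0.0689 in the same test. Without cKO replicate 4, edgeR called 3 genes of this list, with *Cacna1g* (log2 fold change 0.19, adjusted p = 0.0476) and *Scn2b* (-0.67, adjusted p = 0.0076) beside *Cacna1d*.

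A list of 42 genes tied to excitability in the myometrium held potassium leak channels, other channels and their subunits, and the oxytocin receptor gene *Oxtr*. Of these genes 35 were tested, 2 rose and 2 fell (11.4% called, against 5.34% of all genes tested), with a median log2 fold change of 0.07. *Kcnn4* rose from 1.58 ± 0.297 to 2.95 ± 0.303 CPM (SD, n = 4 each, log2 fold change 0.89, standard error 0.18, adjusted p = 0.014), and *Kcnn3* rose from 66.6 ± 7.31 to 94.0 ± 11.6 CPM (0.50, standard error 0.10, adjusted p = 0.0133). Both encode potassium channels opened by calcium. The voltage-gated potassium channel gene *Kcnh1* fell from 4.18 ± 0.658 to 2.24 ± 0.129 CPM (-0.90, standard error 0.16, adjusted p = 0.00541). *Ano1*, which encodes a calcium-activated chloride channel, fell from 256 ± 8.41 to 194 ± 9.94 CPM (-0.40, standard error 0.06, adjusted p = 0.00118), and its 4 cKO libraries lay between 180 and 202 CPM, below the 249 CPM of the lowest control library. The highest level was that of *Abcc9*, a regulatory subunit of ATP-sensitive potassium channels, at 323 ± 57.8 and 296 ± 49.6 CPM (-0.13, standard error 0.14, adjusted p = 0.648). These p-values are those of edgeR's quasi-likelihood test. *Kcnn3* was not called without control replicate 1 (adjusted p = 0.0513) or without cKO replicate 3 (adjusted p = 0.0505), and without cKO replicate 4 the list had 7 calls, the 4 above together with *Kcnk7* (log2 fold change 1.15, adjusted p = 0.0317), *Kcnh2* (0.24, adjusted p = 0.0353) and *Trpv4* (0.37, adjusted p = 0.0268).

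The integrin subunit genes, to whose beta members *Itgbl1* is related, gave 25 tested of 26, with 2 that rose and 2 that fell (16% called, against 5.34% of all genes tested) and a median log2 fold change of -0.02. The beta subunit genes *Itgb8* (-0.61, standard error 0.16, adjusted p = 0.0486) and *Itgb3* (-0.56, standard error 0.14, adjusted p = 0.0347) fell. The alpha subunit genes *Itga2b* (0.49, standard error 0.13, adjusted p = 0.0408) and *Itga5* (0.25, standard error 0.07, adjusted p = 0.0467) rose, all by edgeR's quasi-likelihood test. *Itgb8* fell from 9.41 ± 1.67 to 6.16 ± 1.26 CPM and *Itgb3* from 14.6 ± 2.96 to 9.92 ± 1.13 CPM (SD, n = 4 each). *Itgb1*, the shared beta subunit of most integrins, was at 935 ± 41.3 CPM (SD, n = 4) in controls against 958 ± 62.0 CPM (SD, n = 4) in cKO uteri (adjusted p = 0.79 in the same test). These calls were weak, since none of the 4 held without control replicate 1 or 4, nor without cKO replicate 2 or 3, and limma-voom called 1 gene of the list. In the other direction, DESeq2 called 6 genes of the list, and so did edgeR with a block for the replicate number. Without cKO replicate 4 edgeR called the 4 and also the alpha subunit genes *Itga7* (log2 fold change 0.57, adjusted p = 0.0215) and *Itga10* (0.91, adjusted p = 0.0098).

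**Figure D4:**
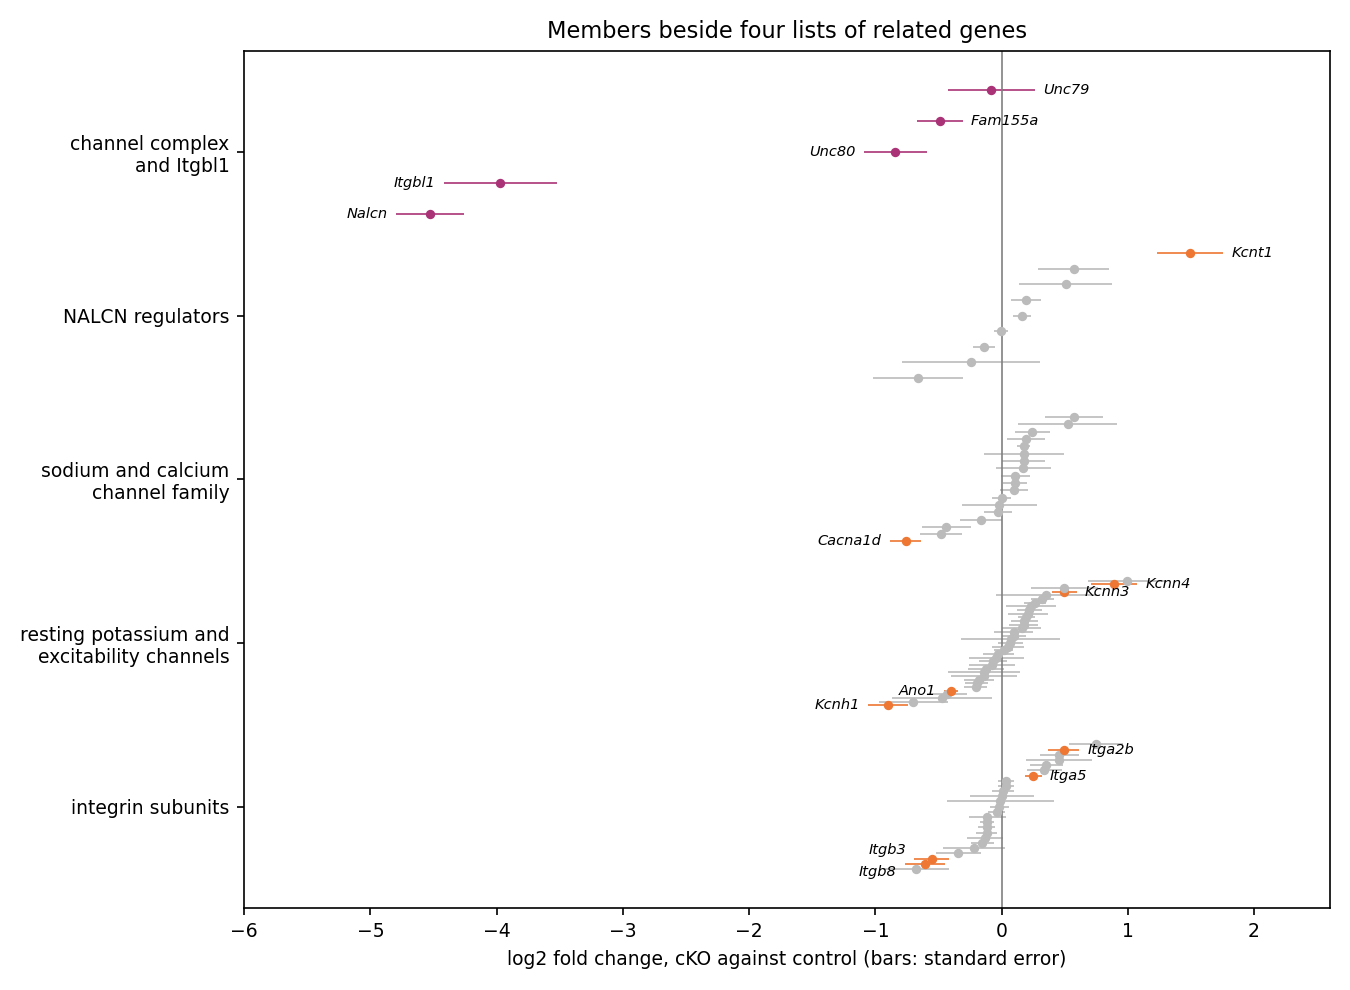
Log2 fold change of cKO against control (x axis, bars for the standard error) of the 5 described genes (purple) and of the tested genes of the 4 lists (y axis), sorted within each list, where orange marks genes with an adjusted p under 0.05 in edgeR's quasi-likelihood test and grey the rest. Apart from *Nalcn* and *Itgbl1*, the genes shown lie between -0.90 (*Kcnh1*) and 1.5 (*Kcnt1*).

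Markers of cell types that could hold these transcripts were summed beside the members. The 8 smooth muscle markers summed to between 7502 and 9533 CPM in control and between 8330 and 9532 CPM in cKO libraries. By edgeR's quasi-likelihood test 0 of 8 were called, where 5.34% of all genes tested were called. The 7 epithelial markers summed to between 1166 and 1394 CPM in control and between 1320 and 1620 CPM in cKO libraries, with 0 of 7 called. These 7 mark the epithelium as a whole and include no gland gene, so their sum does not measure the glands. The authors report fewer uterine glands in cKO mice at later ages. Of 8 stromal markers 1 was called (12.5%, against 5.34% of all genes tested). This was *Col3a1*, which rose (log2 fold change 0.36, standard error 0.09, adjusted p = 0.0454 in the same test). The 8 stromal markers summed to between 9602 and 12700 CPM in control and between 11570 and 15090 CPM in cKO libraries. The ranges of the 3 sums overlapped between genotypes. Their part in the values of *Nalcn* and *Itgbl1* was not tested.

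Neuronal and glial markers were examined because the NALCN complex is best known from neurons. Of 10 neuronal markers 5 were tested, and 1 of these (20%) was called, against 5.34% of all genes tested. This was *Rbfox3*, which rose (1.66, standard error 0.23, with an adjusted p of 0.00104 in edgeR's quasi-likelihood test). The other 4 were not called, with log2 fold changes from -1.37 (*Elavl3*, standard error 0.66) to 0.35 (*Elavl4*, standard error 0.32). All 10 neuronal markers summed to between 11.04 and 13.6 CPM in control and between 11.8 and 15.7 CPM in cKO libraries, and the markers *Th* and *Tubb3* had means from 0.0316 to 0.157 CPM in either genotype. Of 7 Schwann cell markers, *Foxd3* (1.27, standard error 0.32, adjusted p = 0.04), *Sox10* (0.92, standard error 0.23, adjusted p = 0.0407) and *Erbb3* (0.33, standard error 0.08, adjusted p = 0.026 in the same test) rose, that is 42.9% against 5.34% of all genes tested. Their sum was between 72.4 and 82.3 CPM in control and between 84.2 and 101 CPM in cKO libraries. Of the 4 markers of interstitial cells of Cajal, *Ano1* fell, that is 25% against 5.34% of all genes tested. The other 3 were not called, with log2 fold changes of -0.02 (*Etv1*, standard error 0.14), 0.48 (*Thbs4*, standard error 0.17) and -0.04 (*Kit*, standard error 0.12). *Kit* was at 29.3 ± 5.10 CPM (SD, n = 4) in controls against 28.5 ± 3.57 CPM (SD, n = 4) in cKO uteri (adjusted p = 0.889 in the same test).

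The sum of 7 fat cell markers differed between the cKO libraries, from 2.87 to 243 CPM against 2.15 to 3.60 CPM in control libraries. *Fabp4*, a lipid carrier of fat cells, reached 39.0, 107 and 45.3 CPM in cKO replicates 1 to 3 and was at 1.61 CPM in cKO replicate 4. In cKO replicate 4, which lacked this signal, *Nalcn* was at 0.280 CPM, within the range of the other cKO libraries. *Itgbl1* (0.175 CPM) and *Unc80* (1.16 CPM) had their highest cKO values there, and both were below every control library. Of 4 tested skeletal muscle markers 1 was called (25%, against 5.34% of all genes tested). This was embryonic myosin *Myh3*, which rose from 0.0728 ± 0.0651 to 1.33 ± 0.665 CPM (SD, n = 4 each, with an adjusted p of 0.00388 in edgeR's quasi-likelihood test). The other 3 were not called, with log2 fold changes of -0.13 (*Acta1*, standard error 0.20), 0.26 (*Des*, standard error 0.08) and 1.46 (*Ckm*, standard error 0.46). In the same test 0 of 6 endothelial, 0 of 5 mesothelial and 0 of 4 macrophage markers were called. The part of the markers in the values of the channel genes was not tested.

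The fold changes of the 5 genes were recomputed under 17 alternatives to the fit. The log2 fold change of *Nalcn* lay between -4.65 and -4.21 and that of *Itgbl1* between -4.33 and -3.36. That of *Unc80* lay between -1.05 (without cKO replicate 4) and -0.72 (without cKO replicate 1), and that of *Fam155a* between -0.61 and -0.40. The sign of *Unc79* changed when single libraries were left out, from -0.28 without control replicate 4 to 0.08 without control replicate 1.

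**Figure D5:**
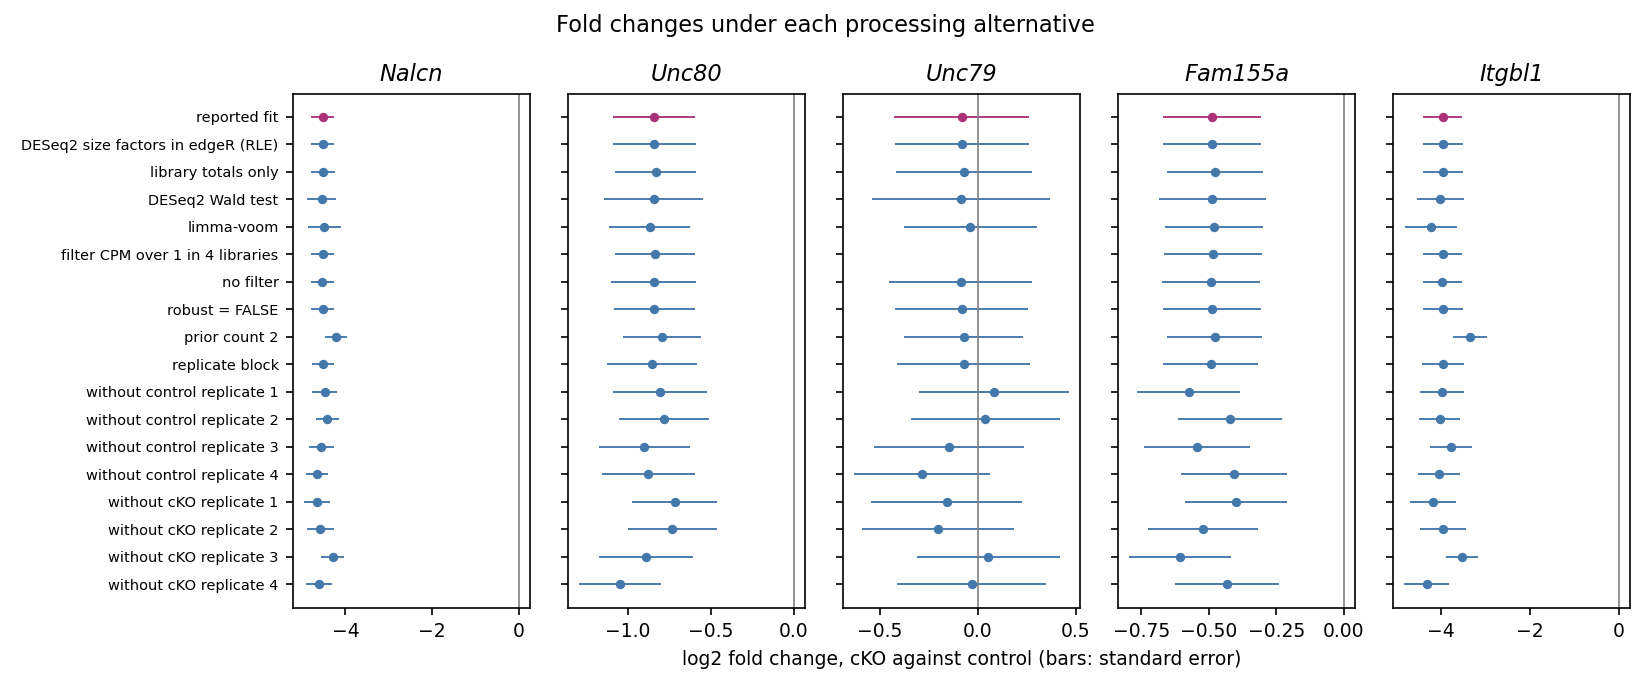
Log2 fold change of cKO against control (x axis, each panel with its own scale, bars for the standard error) of the 5 genes in the reported fit (purple) and the alternatives (blue, y axis). *Nalcn* and *Itgbl1* are at or below -3.36 in each, *Unc80* and *Fam155a* stay below 0, and *Unc79* lies on both sides of 0.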

How the data were processed

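Whole uteri at PD10 (4 control, 4 *Ezh2 Amhr2*-Cre cKO) were profiled by RNA-seq with a stranded mRNA library kit. The authors trimmed reads with Trimmomatic, checked them with FastQC, used HISAT2 for alignment to GRCm38 and featureCounts for counting, and the deposited files hold raw counts per Entrez gene. The annotation release and strand setting are not given in the sources used here. A deposited table of the authors' edgeR comparison (log2 fold change, log2 CPM, F and p-values) gave gene symbols only. Its values were not used.

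Genes with CPM over 0.2 in at least 4 libraries were compared in R 4.3.3 with edgeR 4.0.16 (TMM, glmQLFit with robust = TRUE, glmQLFTest, prior count of 0.125) and Benjamini-Hochberg adjustment over all genes tested. The standard error is the size of the log2 fold change divided by the square root of F. Alternatives used limma 3.58.1 and DESeq2 1.42.0. The scripts were tested on simulated counts. The p-values measure the spread between the 4 libraries of each genotype. Coordinates and promoters came from RefSeq (GRCm38.p6), which gave promoters for 4 of the 5 genes, and exon lengths from GENCODE M21. The genes and lists were chosen with earlier results of these data known. The genes named are the 5 described, *Ezh2*, called genes of the lists, list genes with the highest levels, the 5 genes most like *Nalcn* and *Itgbl1* in pattern, and their neighbours in the order of DE genes. The other list genes, chromosome neighbours, cell type markers and genes called without 1 library were named after their values were seen.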

Additional observations from a re-analysis of the deposited data

How the results depend on the processing

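The number of DE genes was 217, became 139 with a filter of CPM over 1 in 4 libraries and 889 with the adjusted p alone, and lay between 141 (without cKO replicate 1) and 357 (without cKO replicate 4) when single libraries were left out. It was 142 without cKO replicate 2. Of the calls per list, the NALCN regulators went from 1 to between 1 and 2, the sodium and calcium channel genes from 1 to between 1 and 3, the potassium channel and excitability genes from 4 to between 3 and 7, and the integrins from 4 to between 0 and 6 when single libraries were left out. The upper values are those without cKO replicate 4, and 0 integrins were called when control replicate 1 or 4, or cKO replicate 2 or 3, was left out, with 1 called without control replicate 3 or cKO replicate 1. DESeq2 called 3 sodium and calcium channel genes and 6 integrin genes, and limma-voom called 1 integrin gene. The cause of these shifts was not tested. With a prior count of 2 the log2 fold change of *Itgbl1* was -3.36. The smaller size follows from adding more to the near-zero cKO counts. *Kcnt1*, *Cacna1d*, *Kcnh1*, *Kcnn4* and *Ano1* were called in all 17 alternatives. *Unc79* was under the filter of CPM over 1. No scaling moved the median of all genes by more than 0.01. A block for the replicate number gave 253 DE genes, 2 sodium and calcium channel genes and 6 integrin genes, with 1240 genes called against 889. The labels do not say whether the numbers pair the libraries. The correlations of same-numbered deviations were 0.066, 0.156, -0.042 and 0.263, and not every library correlated best with its own number. So few correlations cannot decide whether libraries of the same number shared a litter or a batch. Low counts limit *Unc79* (10 to 19 per library) and the cKO values of *Nalcn* and *Itgbl1* (0 to 8 per library).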
